A study of Mus musculus with 6 samples.

Results

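In all, 10 genes of the immediate early class were followed in epididymal white adipose tissue of mice kept in the cold and of control mice: Fos, Fosb, Jun, Junb, Jund, Egr1, Nr4a1, Atf3, Klf4 and Dusp1. They were chosen by symbol from the GENCODE M21 annotation of the mouse genome, build GRCm38. All 10 had at least 1 read, out of 23492 genes with a read, and 8 of the 10 passed the filter on low counts, out of 9772 genes that passed. Fosb and Atf3 did not pass. Of the 10 genes, 9 encode transcription factors, and Dusp1 encodes a phosphatase that belongs to the same induced class.

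The tissue is the fat pad attached to the epididymis, and its poly-A RNA was copied into cDNA that was read by Oxford Nanopore sequencing with no PCR step. The 3 cold mice (7, 12 and 16) spent 24 h in single housing at 4 °C before the tissue was taken, and the 3 ctrl mice (5, 6 and 10) make up the other group. All were male wild type C57BL/6N mice, 20 weeks old per the labels, from a base housing at 22 to 24 °C, and each library was made from 100 ng of poly-A RNA of 1 animal. The labels do not say whether ctrl mice were housed alone, and the fat pads were snap-frozen after dissection at an interval that is not given in the sources used here.

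Immediate early genes are switched on within minutes of a stimulus, from transcription factors already present in the cell such as CREB and the serum response factor, without the need for new protein synthesis. Their mRNAs are short-lived, so a single burst fades quickly. In fat, noradrenaline released by sympathetic nerves in the cold acts through beta-adrenergic receptors, cAMP and protein kinase A, a route that phosphorylates CREB, and growth factors and mechanical stress act through the MAP kinases.

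CREB binds the cAMP response element, TGACGTCA, or its shorter core, TGACG, and the promoters below show how these letters are spread over 4 of the genes that are taken up in the results. Each line gives the 250 bases before the RefSeq start site, 5′ to 3′ on the strand of the gene, from RefSeq on GRCm38.p6. The core on either strand (TGACG or CGTCA) is in capitals.
Fos (chr12:85473640-85473889, plus strand): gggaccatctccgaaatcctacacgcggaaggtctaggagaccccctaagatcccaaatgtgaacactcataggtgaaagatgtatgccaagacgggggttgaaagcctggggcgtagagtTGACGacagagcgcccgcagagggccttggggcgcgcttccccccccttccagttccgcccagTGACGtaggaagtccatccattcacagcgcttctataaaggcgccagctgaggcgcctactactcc
Nr4a1 (chr15:101266596-101266845, plus strand): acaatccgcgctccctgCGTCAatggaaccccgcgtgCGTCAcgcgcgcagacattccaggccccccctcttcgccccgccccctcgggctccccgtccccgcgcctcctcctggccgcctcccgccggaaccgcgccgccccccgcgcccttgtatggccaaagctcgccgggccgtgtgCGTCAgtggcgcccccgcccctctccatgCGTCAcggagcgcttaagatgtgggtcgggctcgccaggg
Klf4 (chr4:55532476-55532725, minus strand): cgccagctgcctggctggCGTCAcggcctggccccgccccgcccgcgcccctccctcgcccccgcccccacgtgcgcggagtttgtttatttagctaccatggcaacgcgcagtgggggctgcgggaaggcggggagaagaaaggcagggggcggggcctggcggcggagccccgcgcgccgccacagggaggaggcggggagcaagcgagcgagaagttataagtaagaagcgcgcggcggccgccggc
Dusp1 (chr17:26508473-26508722, minus strand): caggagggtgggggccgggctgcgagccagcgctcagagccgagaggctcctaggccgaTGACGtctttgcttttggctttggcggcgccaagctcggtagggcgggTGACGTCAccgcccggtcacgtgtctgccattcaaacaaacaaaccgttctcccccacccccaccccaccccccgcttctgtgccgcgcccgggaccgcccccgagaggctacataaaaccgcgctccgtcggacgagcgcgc

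RefSeq promoter windows of 300 bases (250 before and 50 after the start site) were matched for 9 of the 10 genes, all but Egr1. The RefSeq start site of Jund lies 1210 bases before the nearest GENCODE start of the gene, so its window, counted among the 9, lies wholly upstream of the gene as annotated. The core TGACG, searched on both strands, was in 7 of these 9 windows (Fos, Fosb, Junb, Nr4a1, Atf3, Klf4 and Dusp1) and in 20.8% of all 32851 windows. Nr4a1 held 4 cores, at -233, -213, -69 and -40 from its start site. Dusp1 was the one gene of the 9 with the full element, at -143, which 1.79% of all windows held. Its 3 cores include both strands of that full element. The AP-1 site TGANTCA was in 0 of 9 windows and in 7.81% of all windows, and the EGR site GCGNGGGCG was in 3 of 9 (Fosb, Nr4a1 and Klf4) against 5.55%. TATAAA was in Fos and Junb and in 13.6% of all windows. The GC box GGGCGG was in 7 of 9 windows against 35.7%. The CArG box, the site of the serum response factor, was in 0 of 9 windows and in 1.63% of all windows. These matches describe letters in a window and not binding, and sites beyond the window were not searched.

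Total reads were 726283 to 1194134 per cold mouse and 939107 to 1341592 per ctrl mouse, with the fewest in cold 7 and the most in ctrl 6. Values are given as reads and as CPM, the reads scaled to a fixed total of gene reads in each library, where 1 read is worth 0.747 to 1.38 CPM. In cold 16, 7.84% of total reads were mitochondrial, against 5.75% to 6.74% in the other 5 libraries. Retained-intron transcripts held 4.38% of its total reads, against 3.25% to 3.63% in the others. Epididymis markers summed to 319 CPM in cold 7 and to 0 to 5.11 CPM in the other libraries, with Lcn9 and Gpx5 at 0 everywhere. Markers of simple epithelium were higher in cold mice (73.1 to 169 CPM, against 5.23 to 22.4 CPM in ctrl mice). Mature adipocyte markers summed to 34495 to 35737 CPM in cold mice, against 28066 to 31932 CPM in ctrl mice. The 7 markers were split, with 4 log2 fold changes above 0 and 3 below, and a median of 0.08. In bulk tissue, fewer cells of a type and less RNA per cell cannot be told apart.

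After 24 h of cold, none of the 8 tested genes passed the test for a difference from ctrl. Junb, Egr1, Klf4 and Dusp1 had log2 fold changes of -0.46 to -0.42, cold minus ctrl, while Fos, Jun, Jund and Nr4a1 lay within 0.13 of 0 on that scale, and for each gene the mice of one group overlapped those of the other. The edgeR quasi-likelihood test passed 0 of 8 at an adjusted p of 0.05, over a background of 0.655% of the 9772 genes tested (53 higher and 11 lower in cold). At an unadjusted p under 0.05 the count was also 0 of 8, over a background of 8.43%, and DESeq2 and limma-voom passed 0 of 8 as well. The CPM of the groups overlapped for all 10 genes, while 13.7% of tested genes had groups that did not overlap. The fold changes on that scale were below 0 for 5 genes and above 0 for 3, with a median of -0.27 beside 0.01 over all tested genes.

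**Figure D1:**
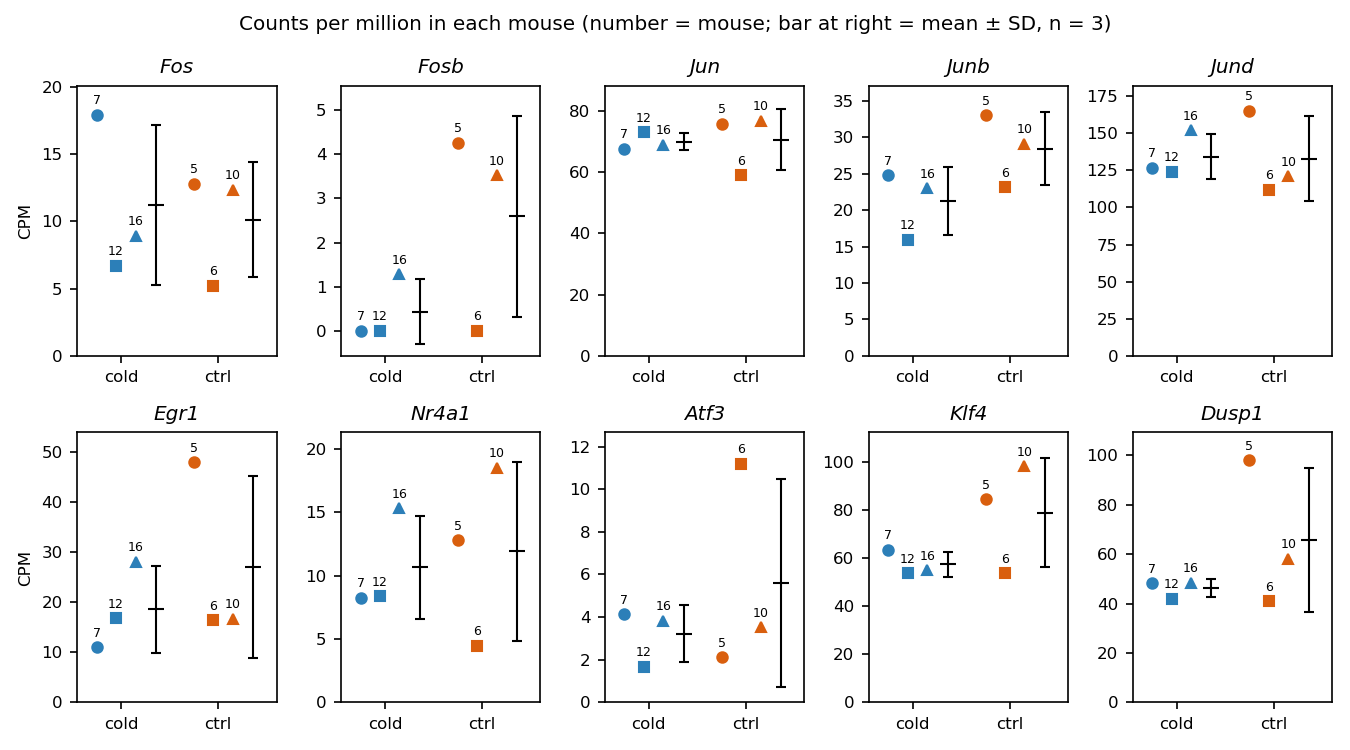
CPM of the 10 genes in each mouse (y axis, linear from 0 or just below it), with cold on the left and ctrl on the right of each panel. Points are mice, named by number, and the bar to the right of each group is the mean ± SD (n = 3). In each of the 10 panels the points of the groups overlap, and ctrl 5 or ctrl 10 is the highest point in 8 panels.

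The AP-1 subunits come first. AP-1 is a dimer of a Jun protein with a Fos or another Jun protein. Fos (ENSMUSG00000021250.13, chr12:85473890-85477273), the classic marker of acute cell activation, was scarce. It had 13, 8 and 7 reads in cold mice 7, 12 and 16 (17.9, 6.71 and 8.94 CPM), against 12, 7 and 14 reads in ctrl mice 5, 6 and 10 (12.8, 5.23 and 12.4 CPM). The highest mouse, cold 7, was a cold one, and the lowest, ctrl 6, a ctrl one. The log2 fold change was 0.13 with a standard error (SE) of 0.45, a 95% interval of -0.80 to 1.06 and an adjusted p (edgeR) of 0.972. That interval spans 0.573-fold to 2.08-fold. The log2 fold change of Fos was -0.34 without cold 7 and -0.23 without ctrl 6, so its sign depended on single mice.

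Fosb, the other Fos family member measured here, had 9 reads in all 6 mice. It had 0, 0 and 1 reads in cold mice 7, 12 and 16, against 4, 0 and 4 reads in ctrl mice 5, 6 and 10. A count of 0 allows up to 4.14 CPM in cold 7, 2.52 CPM in cold 12 and 2.24 CPM in ctrl 6. The ratio of the summed counts, scaled by depth, was 0.158 with an exact 95% interval of 0.00356 to 1.18, which covers counting error only, so a difference was not detectable at this depth.

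Jun and Jund had the smallest ratios of the highest to the lowest mouse, 1.30 and 1.48. Jun (ENSMUSG00000052684.4, chr4:95049034-95052222), the AP-1 subunit that gave the family its name, had 67.6, 73.0 and 69.0 CPM in cold mice 7, 12 and 16, against 75.7, 59.0 and 76.8 CPM in ctrl mice 5, 6 and 10. All 3 cold mice lay inside the range of the ctrl mice. The variance of Jun over the 6 mice was 0.747 times what counting alone gives, and its log2 fold change was 0.03 (SE 0.17, 95% interval -0.33 to 0.38, adjusted p 0.987 with edgeR). Jund (ENSMUSG00000071076.6, chr8:70698949-70700616), a subunit that many tissues hold without a stimulus, had 127, 124 and 152 CPM in cold mice 7, 12 and 16. It had 165, 112 and 121 CPM in ctrl mice 5, 6 and 10. Ctrl mice held both the highest and the lowest value of Jund, and the log2 fold change was 0.05 (SE 0.16, 95% interval -0.28 to 0.38, adjusted p 0.968 with edgeR).

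Junb, a Jun family protein that can restrain the activity of Jun, had 24.8, 15.9 and 23.0 CPM in cold mice 7, 12 and 16, against 33.1, 23.1 and 29.1 CPM in ctrl mice 5, 6 and 10. Cold 12 was the lowest, and the groups overlapped only because ctrl 6 lay below cold 7. The reads were 18, 19 and 18 in cold mice and 31, 31 and 33 in ctrl mice, from libraries of unequal depth. The log2 fold change was -0.42 (SE 0.27, 95% interval -0.97 to 0.13, adjusted p 0.752 with edgeR), and without cold 12 it was -0.21. Junb (ENSMUSG00000052837.6, chr8:84974484-84978718) overlaps Prdx2 on the opposite strand, which had 1255 reads in the 6 mice, and since the use of strand in counting is not given in the sources used here, its counts are uncertain to that extent.

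Atf3, a stress-induced factor of the same leucine zipper class, had 3, 2 and 3 reads in cold mice 7, 12 and 16, against 2, 15 and 4 reads in ctrl mice 5, 6 and 10. Ctrl 6 stood alone at 11.2 CPM, and the other 5 mice had 1.68 to 4.14 CPM. This mouse had the lowest value of 5 of the 8 tested genes, so Atf3 did not follow them there. The depth-scaled ratio of summed counts was 0.481 with an exact 95% interval of 0.184 to 1.13, for counting error only. The means were 3.22 CPM in cold and 5.62 CPM in ctrl mice, and without ctrl 6 the ctrl mean was 2.83 CPM, below that of the cold mice, so the direction rested on ctrl 6.

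Egr1 (ENSMUSG00000038418.7, chr18:34859823-34864984), a zinc finger factor induced by growth signals, had 11.0, 16.8 and 28.1 CPM in cold mice 7, 12 and 16, against 48.0, 16.4 and 16.8 CPM in ctrl mice 5, 6 and 10. Ctrl 5 was well above the rest, and the other 2 ctrl mice lay between the lowest and the highest cold mouse. Its log2 fold change was -0.45 (SE 0.39, 95% interval -1.26 to 0.37, adjusted p 0.851 with edgeR). It was 0.17 without ctrl 5, so the sign of the difference rested on that 1 mouse.

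Klf4 (ENSMUSG00000003032.8, chr4:55527143-55532466), a zinc finger factor of the Krüppel-like family that is expressed in epithelial, endothelial and stromal cells, had 63.4, 53.7 and 54.9 CPM in cold mice 7, 12 and 16. It had 84.3, 53.8 and 98.0 CPM in ctrl mice 5, 6 and 10. Ctrl 5 and ctrl 10 were above every cold mouse, and ctrl 6 lay among the cold mice. The means were 57.3 ± 5.30 CPM in cold and 78.7 ± 22.6 CPM in ctrl mice (SD, n = 3 each). The log2 fold change was -0.43 (SE 0.21, 95% interval -0.87 to 0.01), with an unadjusted p of 0.057 and an adjusted p of 0.616 (edgeR). Klf4 had -0.66 without ctrl 6 (adjusted p 0.186) and -0.22 without ctrl 10 (adjusted p 0.898). It had -0.08 in the X1 files and -0.80 in the X2 files, which are the pair of files deposited for each mouse.

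Nr4a1, an orphan nuclear receptor that beta-adrenergic signals are known to induce, had 6, 10 and 12 reads in cold mice 7, 12 and 16 (8.27, 8.39 and 15.3 CPM). It had 12, 6 and 21 reads in ctrl mice 5, 6 and 10 (12.8, 4.48 and 18.5 CPM). The cold mice lay inside the range of the ctrl mice. For Nr4a1 the log2 fold change was -0.12 (SE 0.45, 95% interval -1.07 to 0.83, adjusted p 0.973 with edgeR), and leaving out 1 mouse at a time moved it between -0.58 and 0.39.

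Dusp1 (ENSMUSG00000024190.7, chr17:26505590-26562128), a phosphatase that switches off the MAP kinases and so limits the signal that induces it, had 48.3, 41.9 and 48.5 CPM in cold mice 7, 12 and 16. It had 98.1, 41.1 and 58.2 CPM in ctrl mice 5, 6 and 10. Ctrl 5 stood far above the other 5 mice, and ctrl 6 was below every cold mouse. The means were 46.2 ± 3.74 CPM in cold and 65.8 ± 29.3 CPM in ctrl mice (SD, n = 3 each). The log2 fold change was -0.46 (SE 0.25, 95% interval -0.98 to 0.07), with an unadjusted p of 0.0849 and an adjusted p of 0.679 (edgeR). It was -0.09 without ctrl 5 and -0.73 without ctrl 6 (adjusted p 0.989 and 0.240). The locus as annotated overlaps Ergic1 on the opposite strand (499 reads), so reads of the pair may be shared.

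**Figure D2:**
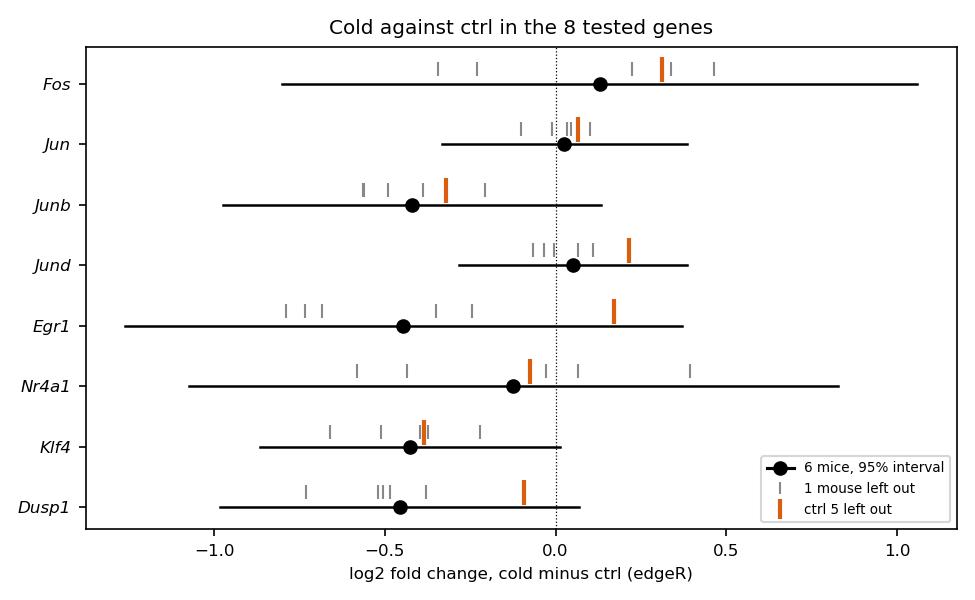
Log2 fold change, cold minus ctrl (x axis, edgeR), of the 8 tested genes (y axis). Black points and lines are the estimate and 95% interval over 6 mice, grey ticks leave out 1 mouse each and the orange tick leaves out ctrl 5. All 8 intervals reach across 0, and the tick without ctrl 5 lies right of the estimate for each gene, by the most for Egr1 (0.17 in place of -0.45).

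By level per kilobase of transcript (CPM divided by the annotated length of the transcripts read, mean ± SD over the 6 mice), Jund came first at 80.1 ± 12.3, and its range over mice did not overlap that of the next gene. Dusp1 (28.3 ± 10.9), Klf4 (22.4 ± 6.20) and Jun (22.0 ± 2.06) followed with ranges that overlapped one another. Junb had 13.8 ± 3.25 and lay below the range of Jun. Egr1 (5.30 ± 3.14), Fos (5.06 ± 2.21), Nr4a1 (4.66 ± 2.14) and Atf3 (2.25 ± 1.77) did not differ from their neighbours in the order beyond the range over mice, and Fosb was last at 0.403 ± 0.514. This order depends on the division by length, and whether read number rises with transcript length in these libraries was not tested. In mean CPM over the 6 mice, Jund was again first (134). Jun (70.2) and Klf4 (68.0) then came before Dusp1 (56.0), and Junb (24.8) was close to Egr1 (22.8). Per kilobase, each Jun family gene lay above the range of Fos over the mice, and so did Klf4 and Dusp1. In CPM, Junb overlapped Fos, with 15.9 CPM for Junb in cold 12 and 17.9 CPM for Fos in cold 7. Jund had 80.5 per kilobase in cold and 79.6 in ctrl mice, against 5.31 in cold and 4.80 in ctrl mice for Fos.

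At the level of transcripts, 20 annotated transcripts of these genes had reads and 10 could be tested. The edgeR test passed 0 of these 10 (0 at an unadjusted p under 0.05, and 0 with DESeq2 or limma-voom), over a background of 0.381% of 12325 transcripts. Fos, Jun, Jund and Klf4 were read from 1 transcript each, and Jun and Jund have no other annotated transcript. Dusp1 was read from 4, and Dusp1-203, annotated as a retained intron, took 26.3% ± 8.95 of its reads in cold and 25.4% ± 5.78 in ctrl mice (SD, n = 3 each). The spliced Dusp1-202 took 40.8% ± 14.8 in cold and 43.9% ± 11.3 in ctrl mice, and its log2 fold change was -0.59 (SE 0.38, adjusted p 0.838 with edgeR). Of the Nr4a1 reads, Nr4a1-202 held 62.2% ± 25.9 in cold and 56.3% ± 9.01 in ctrl mice, on 28 and 39 reads of the gene. Egr1-201 held 92.1% ± 7.06 of the Egr1 reads in cold and 87.5% ± 1.71 in ctrl mice.

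Most pairs of the tested genes were positively correlated over the 6 mice, but no pair passed after adjustment. The SD of CPM was larger among ctrl than among cold mice for 7 of the 8 tested genes, the exception being Fos (5.94 in cold and 4.25 in ctrl mice). This comparison was not tested, and the same mice enter it for each gene. The share over all tested genes was not computed, so the spread cannot be called particular to these genes. Ctrl 5 had the highest CPM of 4 of the 8 tested genes (Junb, Jund, Egr1 and Dusp1) and ctrl 10 of 3 (Jun, Nr4a1 and Klf4), while ctrl 6 had the lowest of 5 (Fos, Jun, Jund, Nr4a1 and Dusp1). The summed CPM of all 10 genes was 372, 342 and 405 in cold mice 7, 12 and 16, against 536, 326 and 438 in ctrl mice 5, 6 and 10. The cold mice lay close together (373 ± 31.4, SD, n = 3) inside the wider range of the ctrl mice (433 ± 105, SD, n = 3). Each of the 8 tested genes was also scaled to its mean and SD over the 6 mice on the log2 CPM scale, and averaged per mouse. This mean was -0.05, -0.61 and 0.10 in cold mice 7, 12 and 16, against 1.05, -1.04 and 0.55 in ctrl mice 5, 6 and 10.

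Dusp1, Egr1 and Jund were highest in ctrl 5 in both the X1 and the X2 files of the mice, and Klf4 and Nr4a1 were highest in ctrl 10 in both. For Fos, Jun and Junb the highest mouse differed between the files. The variance over mice, relative to counting alone, was 8.31 for Dusp1, 7.68 for Egr1, 5.68 for Klf4 and 3.23 for Jund, beside a median of 1.35 over tested genes. For Fos, Nr4a1 and Junb it was 2.07, 2.78 and 1.51, and for Jun it was 0.747, less than counting alone gives.

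Over the 28 pairs of tested genes, Pearson's r of log2 CPM was positive in 27, from -0.03 to 0.81, with a median of 0.52 and a median Spearman rho of 0.60. Over all pairs of tested genes the median r was -0.0015 and 49.9% of pairs were positive. With each value centred on the mean of its group, the median over the 28 pairs was 0.59 and all 28 were positive, so the pattern was present with the group means removed. It was 0.55 in the X1 files (23 of 28 positive) and 0.37 in the X2 files (20 of 28). These medians are descriptions over 6 mice, and pairs that share a gene are not independent.

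**Figure D3:**
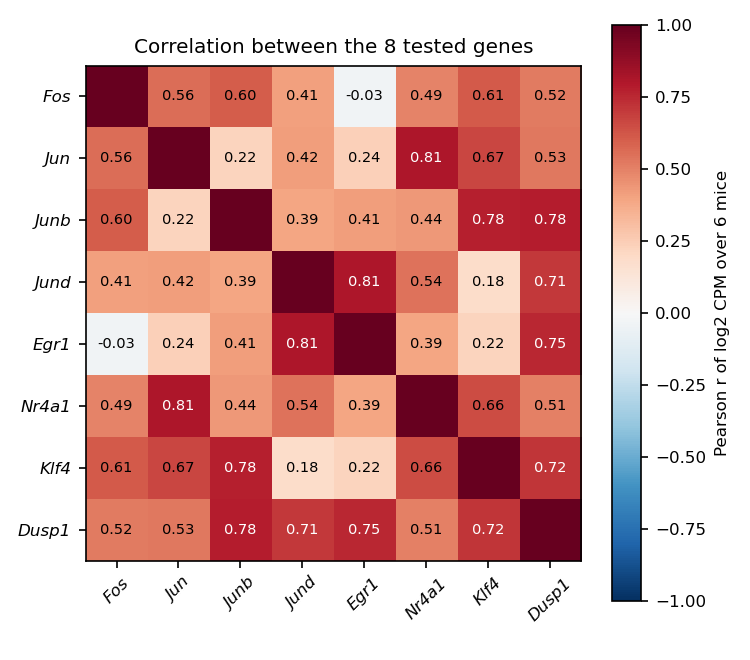
Pearson's r of log2 CPM over the 6 mice for each pair of the 8 tested genes (rows and columns), from -1 in blue to 1 in red. Fos with Egr1, at -0.03, is the one pair below 0, and Jun with Nr4a1 and Jund with Egr1, both at 0.81, are the highest.

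No single pair passed after adjustment. With an exact permutation test over the 720 orders of 6 mice, 2 of 28 pairs had an unadjusted two-sided p under 0.05 for r and 3 for rho, and 0 after Benjamini-Hochberg adjustment over the 28 pairs for either. Jun and Nr4a1 had r = 0.811 (exact p 0.0444, adjusted p 0.400) and rho = 0.600 (exact p 0.242), and r was -0.20 without the 2 mice farthest from the median of Jun. Jund and Egr1 had r = 0.809 (exact p 0.0472, adjusted p 0.400) and rho = 0.600 (exact p 0.242), and r was -0.64 without the 2 farthest mice. With 4 mice left the range is narrower, and the relations were not present there. Leaving out 1 mouse, r was 0.81 for Jun with Nr4a1 and 0.59 for Jund with Egr1 without ctrl 5, and 0.44 and 0.87 for these pairs without ctrl 6. Centred on the group means, r was 0.82 for Jun with Nr4a1 and 0.92 for Jund with Egr1.

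The pairs among Junb, Klf4 and Dusp1 had the highest rho. Junb and Dusp1 had r = 0.783 (exact p 0.0819, adjusted p 0.400) and rho = 0.943 (exact p 0.0167, adjusted p 0.233), and Klf4 and Dusp1 had r = 0.716 (exact p 0.0681, adjusted p 0.400) with the same rho and p. Junb and Klf4 had r = 0.780 (exact p 0.0542, adjusted p 0.400) and rho = 0.886 (exact p 0.0333, adjusted p 0.272). Without the 2 farthest mice, r was 0.88 for Junb with Dusp1, 0.74 for Klf4 with Dusp1 and 0.99 for Junb with Klf4. Within the files, Junb with Dusp1 had r = 0.65 in X1 and -0.083 in X2, Junb with Klf4 had 0.47 in X1 and 0.74 in X2, and Klf4 with Dusp1 had 0.65 in X1 and 0.45 in X2. Egr1 with Dusp1 had r = 0.754 (exact p 0.0931, adjusted p 0.400) and rho = 0.543 (exact p 0.297), and r was 0.00281 without ctrl 5.

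Markers of other cells also differed between the mice. The 5 mesothelial markers (Msln, Upk3b, Wt1, Krt19 and Lrrn4) summed to 132, 62.1 and 71.5 CPM in cold mice 7, 12 and 16, against 175, 58.2 and 164 CPM in ctrl mice 5, 6 and 10. They were highest in ctrl 5 and ctrl 10 and lowest in ctrl 6, as the mean of the 8 genes was, while cold 7 was high in these markers and not in the mean. The 5 fibroblast markers summed to 2009, 1604 and 1294 CPM in cold mice 7, 12 and 16 and to 1937, 1216 and 1794 CPM in ctrl mice 5, 6 and 10. The 7 mature adipocyte markers were lowest in ctrl 5 (28066 CPM). The 7 endothelial markers summed to 523 to 637 CPM in cold mice and to 611 to 683 CPM in ctrl mice, highest in ctrl 5, and the 8 macrophage markers to 972 to 1653 CPM in cold and 1159 to 1479 CPM in ctrl mice. Smooth muscle and pericyte markers summed to 555 to 695 CPM in cold and 583 to 644 CPM in ctrl mice, and neutrophil and T or NK cell markers stayed at or below 22.4 CPM in every mouse. The 3 markers of B and plasma cells summed to 17.9 to 30.7 CPM in cold mice, against 128, 42.6 and 16.8 CPM in ctrl mice 5, 6 and 10. The library with the lowest mean of the 8 genes, ctrl 6, was also the deepest. The part of any of these in the shared variation was not tested.

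**Figure D4:**
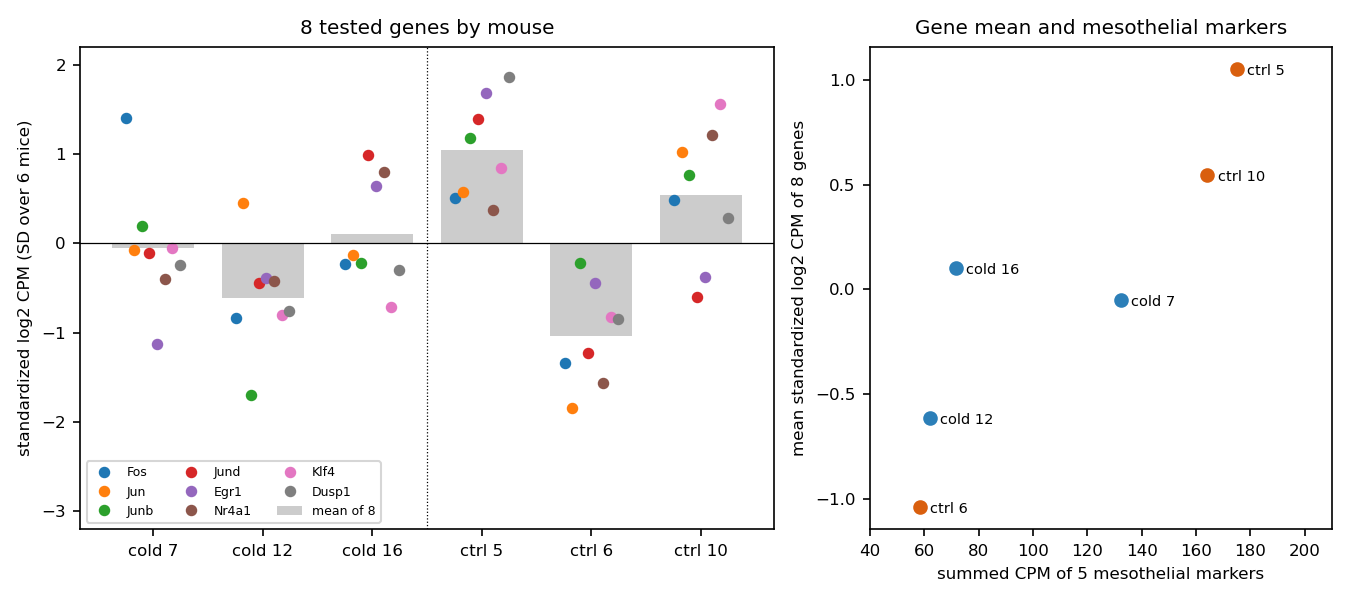
Left, log2 CPM of the 8 tested genes scaled to their mean and SD over 6 mice (y axis) in each mouse (x axis), as points, with the mean of the 8 as grey bars. Right, that mean (y axis) against the summed CPM of 5 mesothelial markers (x axis), with cold mice in blue and ctrl mice in orange. Ctrl 5 and ctrl 10 are at the top of both measures and ctrl 6 is at the bottom of both. Cold 7 is high in the markers (132 CPM) and not in the mean (-0.05). The other marker sets are not plotted.

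A list of 44 other immediate early and cAMP-induced genes, 31 of them tested, was set beside the 10. Of these 31, 0 were higher and 1 was lower in cold, over a background of 0.113% of tested genes lower, and the median log2 fold change was -0.08. The list was chosen with earlier results of these data known, so this count is a description only. The gene that fell was Gadd45g, a stress-induced regulator of MAP kinase signalling and growth arrest. It had 33.1, 35.2 and 47.3 CPM in cold mice 7, 12 and 16, against 74.7, 92.6 and 61.8 CPM in ctrl mice 5, 6 and 10. All 3 cold mice were below all 3 ctrl mice, and ctrl 6, low in most of the 10 genes, was the highest in Gadd45g. The log2 fold change was -0.98 (SE 0.21, adjusted p 0.0255 with edgeR). The call was lost with DESeq2 (adjusted p 0.0798), in the X1 or X2 files alone (0.142 and 0.0616), without cold 12 (0.259) and without ctrl 6 (0.135).

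The next genes of that list by p did not pass. Pim1, a survival kinase, had a log2 fold change of -0.60 (adjusted p 0.367 with edgeR), Ccn1, a matricellular protein, had -0.68 (adjusted p 0.613), and Trib1, a pseudokinase, had 0.56 (adjusted p 0.645). Scaled and averaged in the same way, the 31 genes had 0.24, -0.56 and -0.06 in cold mice 7, 12 and 16, against 0.63, -0.08 and -0.18 in ctrl mice 5, 6 and 10. Ctrl 5 was again the highest mouse and cold 12 was low in both lists, but ctrl 6 was not set apart in the wider list.

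Genes that act with the 10 or upstream of them gave 0 calls in either direction with edgeR, DESeq2 or limma-voom. Of 11 dimer partners of the leucine zipper class, 9 were tested, with a median log2 fold change of -0.17 and 0 at an unadjusted p under 0.05. Maf, the most abundant of those named here at 162 ± 5.22 CPM in cold and 186 ± 14.8 CPM in ctrl mice (SD, n = 3 each), had -0.18 (adjusted p 0.813). Mafg had -0.26, Jdp2, a repressor that pairs with Jun, had -0.23, and Batf3 had -0.35, with adjusted p of 0.828 to 0.908.

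Of 27 genes of the signalling route from the beta-adrenergic receptors to CREB and the serum response factor, 25 were tested, with a median of -0.02 and 2 at an unadjusted p under 0.05 (Prkar2b and Prkacb), a share near the 8.43% of all tested genes, and 1 with DESeq2. Prkar2b, the protein kinase A regulatory subunit abundant in fat, had 521 ± 36.2 CPM in cold and 401 ± 55.6 CPM in ctrl mice (SD, n = 3 each), a log2 fold change of 0.40 (adjusted p 0.315). Prkacb, a catalytic subunit, had 0.42 (adjusted p 0.555), while Prkaca, the other catalytic subunit named, had -0.28 (adjusted p 0.642). Crtc1, a CREB coactivator, had 0.72 (adjusted p 0.626).

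The other MAP kinase phosphatases, 5 tested of 9, had a median of -0.24 and 1 gene at an unadjusted p under 0.05 with edgeR (0 with DESeq2), beside 8.43% of all tested genes. This was Dusp4, at 16.5, 17.6 and 17.9 CPM in cold mice 7, 12 and 16, against 22.4, 33.6 and 27.4 CPM in ctrl mice 5, 6 and 10. Its groups did not overlap, as in 13.7% of all tested genes, and its log2 fold change was -0.67 (SE 0.26, adjusted p 0.447 with edgeR). Dusp7, Dusp6 and Dusp16 had -0.30, -0.24 and 0.19 (adjusted p 0.878, 0.893 and 0.957). All 13 genes of mRNA decay, the machinery that clears such short-lived transcripts, were tested, with a median of -0.05 and 0 at an unadjusted p under 0.05. Btg1 and Cnot8 had -0.27 and -0.21, and Cnot1 and Tob1 had 0.32 and 0.17 (adjusted p 0.653, 0.886, 0.728 and 0.838).

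Among 7020 genes outside the 10 with a mean of at least 20 reads per mouse, the 8 whose log2 CPM over the 6 mice was most like the mean of the 8 tested genes were Dnajc10 (r = 0.995), Txnip (0.984), Crot (0.973), Gm38056 (0.969), Inf2 (0.969), Hnrnph3 (0.967), Ano1 (0.957) and Cd55 (0.956). Over all 7020 genes, 90% of r lay between -0.69 and 0.69, and 38 genes had r of at least 0.9. Txnip, which encodes the inhibitor of thioredoxin, was the most abundant of the 8, with 372, 305 and 372 CPM in cold mice 7, 12 and 16, against 602, 283 and 491 CPM in ctrl mice 5, 6 and 10. Ctrl 5 and ctrl 10 stood above, and ctrl 6 below, every cold mouse. Cd55, a complement regulator on the cell surface, had 29.0, 20.1 and 31.9 CPM in cold mice 7, 12 and 16, against 40.5, 17.9 and 41.5 CPM in ctrl mice 5, 6 and 10. The 4 genes most opposed were Lactb2 (r = -0.984), Eif2b3 (-0.982), Zrsr1 (-0.979) and Polr3k (-0.953). Each r is over 6 mice that share libraries and depth with the mean, and genes ranked in this way were picked for it. With each file set alone r was closer to 0 for all 12 genes. Txnip had 0.93 in both sets, while Dnajc10 had 0.60 in X1 and 0.74 in X2, Crot 0.36 and 0.35, Gm38056 0.94 and 0.57, Inf2 0.58 and 0.22, Hnrnph3 0.83 and 0.64, Ano1 0.62 and 0.67, and Cd55 0.93 and 0.41. Lactb2 had -0.92 in X1 and -0.72 in X2, Zrsr1 -0.87 and -0.91, Polr3k -0.77 and -0.60, and Eif2b3 -0.40 and -0.16.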

How the data were processed

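Poly-A RNA of epididymal fat from 3 cold and 3 ctrl mice was measured. The files deposited by the authors hold unnormalized counts of reads for each annotated transcript, in 12 files, 2 (X1 and X2) for each mouse, and list no transcript at 0. The submitters' processing notes name minimap2 as a tool and GRCm38 as the build, with no minimap2 version. How reads were counted, with which tool, on which strand, and where they match several transcripts, is not given in the sources used here. What separates the X1 and X2 files is not stated in them, so both were summed and each mouse, a separate animal, was 1 replicate.

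Of 61729 transcript identifiers, 61538 matched GENCODE M21, and the unmatched held 0.139% to 0.165% of a library's reads. Transcripts were summed to genes by symbol and gene identifier, and 4 symbols of the wider lists were matched through RefSeq synonyms. Tests of genes and of transcripts used edgeR 4.0.16 in R 4.3.3 (quasi-likelihood F test, TMM, filterByExpr with a minimum count of 10), and p-values were adjusted by Benjamini-Hochberg over all features tested, with a threshold of 0.05. The test was checked on simulated counts, where it called 62.1% of 2-fold and 100% of 4-fold changes of genes. For transcripts these shares were 55.7% and 100%. Smaller changes were not simulated, so the check does not show how often they would be missed. DESeq2 1.42.0 and limma-voom 3.58.1, another normalization, other filters, each file alone and leaving out each mouse were alternatives. Correlations used log2 CPM with TMM and a prior count of 2, computed here from the deposited counts. Intervals on reads and the floor of 3 reads cover counting error only.

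The members and lists were chosen with earlier results of these data known. The text names all 10 genes, up to 4 tested genes with the smallest p from each other list, with every gene past the threshold, and the 8 genes most like and 4 least like the mean of the tested ones. The rule for these was limited to genes with at least 20 reads per mouse on average.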

Additional observations from a re-analysis of the deposited data

How the results depend on the processing

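No paired analysis was possible because the cold and ctrl mice share no replicate number. Across the alternatives run, 0 of the 8 tested genes passed the threshold, with adjusted p from 0.186 upward, and Junb, Klf4 and Dusp1 kept a log2 fold change below 0 in each of 13. With 1 mouse left out the log2 fold change lay between -0.34 and 0.46 for Fos, -0.10 and 0.10 for Jun, -0.067 and 0.22 for Jund, -0.79 and 0.17 for Egr1, and -0.58 and 0.39 for Nr4a1. It was -0.029 in the X2 files for Jun, -0.028 in the X1 files for Jund and 0.095 with limma-voom for Nr4a1. The cause was not tested. Fos, Nr4a1, Fosb and Atf3 rest on at most 21 reads per mouse, which limits what these libraries can show.

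Among transcripts, leaving out 1 mouse gave -0.34 to 0.47 for Fos-201, -0.10 to 0.10 for Jun-201, -0.063 to 0.21 for Jund-201, -0.70 to 0.20 for Egr1-201, and -0.87 to 0.021 for Dusp1-202. Dusp1-206 passed the filter in 3 of the 6 such fits (without cold 7, cold 16 or ctrl 5), with -0.025 to 0.57. Without a filter on low counts Jun-201 had -0.053 and Jund-201 -0.031, Jun-201 had -0.024 in the X2 files, and Jund-201 had -0.023 in the X1 files. Among the genes of the other lists, leaving out 1 mouse gave -0.51 to 0.060 for Dusp6 and -0.078 to 0.54 for Dusp16, and the X1 files gave 0.14 for Dusp6 and 0.076 for Cnot8.

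Over all genes, 64 passed, against 371 with no filter, 38 in the X2 files and 35 (without cold 12) to 199 (without cold 7) with 1 mouse left out, including 106 without ctrl 5. The DESeq2 and limma-voom counts were 46 and 48. Over all transcripts 47 passed, against 260 with no filter, 30 in the X1 files, 26 in the X2 files and 26 (without cold 12) to 162 (without cold 7) with 1 mouse left out, including 71 each without cold 16 and without ctrl 5. The median r between the genes was 0.37 in the X2 files and 0.39 (without ctrl 6) to 0.64 (without cold 7) with 1 mouse left out. The file and mouse alternatives for the genes most like the mean were chosen after seeing the data.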
